A study of Mus musculus with 30 samples.

Results

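The RNA of 39 mouse genes for cytokine, chemokine and lipid mediator receptors was read out of 55401 gene identifiers in Eµ-Myc; p19ARF -/- cells, a mouse B-cell lymphoma line in which the Myc oncogene is driven in B cells by an immunoglobulin heavy chain enhancer and the tumour suppressor p19ARF is deleted. The 39 were taken from a list of receptor genes by symbol, whatever their level, and all 39 of 39 were found. They were measured in 17 paclitaxel resistant lines, 12 DMSO control lines and 1 parental line, with 1 library per line. The resistant lines were wells of that 1 parental line that went through repeated cycles of paclitaxel, a drug that stabilizes microtubules, and of drug-free recovery, and the control lines were wells that received DMSO, the solvent, instead. All lines therefore share the Myc transgene, the p19ARF deletion and 1 founder line, so p-values measure the spread between parallel cultures and not between tumours.

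Type I cytokine receptors, interferon and IL-10 family receptors carry no enzyme of their own and signal through JAK kinases and STAT factors, often by pairing a ligand-binding chain with a chain shared between several cytokines. TNF receptor superfamily members recruit TRAF adaptors and lead to NF-κB, chemokine and lipid mediator receptors couple to G proteins and guide B cells through lymphoid tissue, and TGF-β receptors are kinases that act on SMAD proteins. In B cells, BAFF-R, TACI, CD40, the IL-7 receptor, CXCR4, CCR7 and S1P receptor 1 are known for survival, help from T cells, early development and homing.

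The libraries held 1053948 to 6739131 gene counts in the control lines (median 4052241.5), 480919 to 6682169 in the resistant lines (median 3263532) and 1851837 in the parental line, so 3 counts stood for 0.435 to 6.23 CPM (counts scaled to the TMM-normalized total of the library), and counting error alone is larger in the shallow libraries. No 2 libraries agreed within sampling noise. All 9 B lineage markers were detected, with a summed level of 5326 to 9276 CPM in the control lines and 3803 to 10240 in the resistant lines, while T cell markers summed to at most 24.2 CPM with Cd3e and Cd4 at 0, and myeloid markers to at most 50.3 CPM with Adgre1, S100a8 and S100a9 at 0. Summed natural killer cell markers reached 15.5 CPM, with Nkg7 and Gzmb at 0, and stromal markers 0.521 CPM. The labels from DMSO 12 on are in doubt. Abcb1b, which encodes an efflux pump that carries paclitaxel, was at 15.9 to 45.5 CPM in DMSO 1 to DMSO 11 and at 42.0 to 257 CPM in 16 resistant lines, but at 69.8 CPM in the library labelled DMSO 12 and at 26.1 CPM in the library labelled Pac H9. By mean correlation over all genes tested, the library labelled DMSO 12 was nearer to the control libraries (r = 0.898) than to the resistant ones (0.877), as was Pac H9 (0.894 and 0.855), but only 5 of 17 resistant libraries were nearer to their own group, so this measure does not settle the labels. If those labels were moved by 1 library, the treatment of only these 2 among the treated and control libraries would change, but every resistant library would carry the name of another line, so values given for a named resistant line hold for the deposited labels only. Results near a threshold are therefore also given without those 2 libraries, and the plot of fitted changes gives all 23 genes both ways.

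Of the 39 receptor genes, 23 had enough counts to be tested, and none of the 23 passed the threshold (adjusted p under 0.01) in the comparison of resistant with control lines by edgeR's quasi-likelihood test. Over all genes, 208 of 9445 passed, which is 2.2%. At an unadjusted p under 0.05 the number was 5 of 23 receptor genes, beside 25.1% of all genes, and DESeq2 (5.2% of all genes) and edgeR's likelihood ratio test (4.74%) also called none of the 23 at 0.01. At an adjusted p under 0.05 edgeR's quasi-likelihood test named 3 receptor genes, Tnfrsf13c and Cysltr1 lower and Ifngr2 higher in the resistant lines, beside 7.56% of all genes (3.63% lower and 3.93% higher). With 1 library left out, the largest adjusted p in that edgeR test was 0.0861 for Tnfrsf13c, 0.0769 for Cysltr1 and 0.0906 for Ifngr2. Each of these 3 calls could thus be lost by leaving out 1 library. At that looser threshold S1pr1, lower in the resistant lines, made a count of 4 with DESeq2 (11.2% of all genes), edgeR's likelihood ratio test (10.5%) and library depth as a covariate (12%). Without DMSO 12 and Pac H9 the count at 0.05 was 2, Tnfrsf13c and Cysltr1, by edgeR (9.41%) and 4 with DESeq2 (13.5%). Without DMSO 12 and Pac H9, Tnfrsf13c passed the threshold of 0.01, as 1 of 24 receptor genes tested beside 3.36% of all genes. Of the 23 fitted differences 13 were above 0 (56.5%, beside 56.6% of all genes), with a median log2 fold change of 0.02 beside 0.07 over all genes. Log2 fold changes are of resistant over control lines throughout, with the standard error (SE) of the fit.

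**Figure D1:**
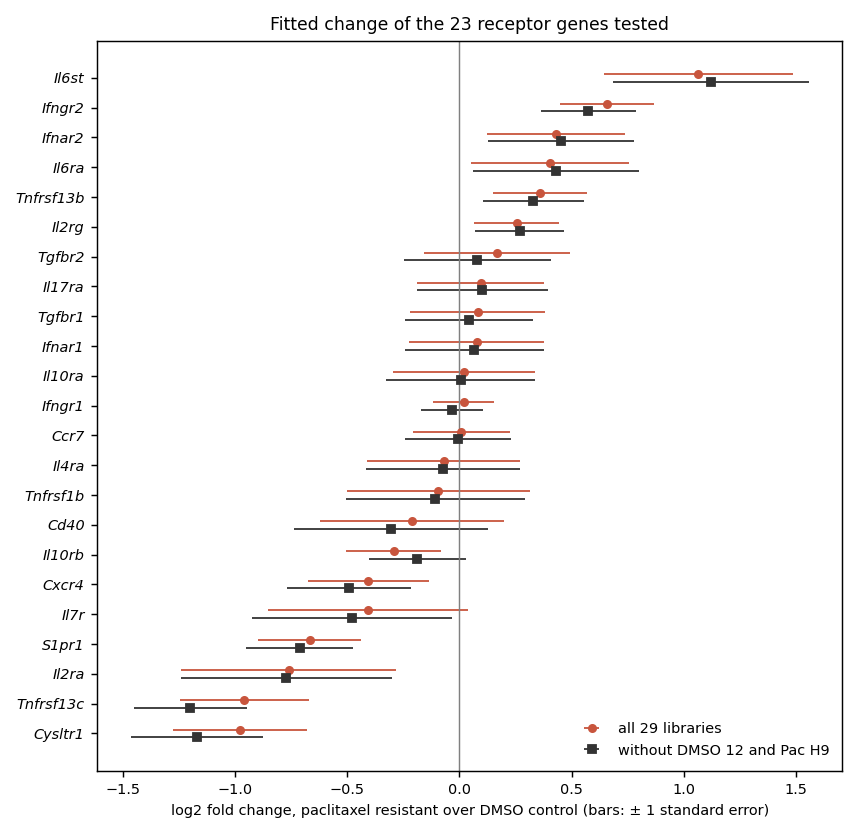
Fitted log2 fold change (resistant over control, horizontal axis) of the 23 receptor genes tested, with bars of 1 standard error, over all 29 libraries (circles) and without DMSO 12 and Pac H9 (squares). Cysltr1 and Tnfrsf13c lie lowest, at -0.98 and -0.96 over all 29 libraries, Il6st lies highest at 1.06, and Ccr7 and Ifngr1 lie within 1 standard error of 0.

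The 39 genes lie on 16 chromosomes (GRCm38). Ifnar2, Il10rb, Ifnar1 and Ifngr2 stand side by side on chromosome 16 between 91372783 and 91565623, a stretch of 192841 bases. The B-cell survival receptor gene Tnfrsf13c lies on chromosome 15 from 82221743 to 82224369, Cysltr1 on chromosome X from 106574346 to 106603679, S1pr1 on chromosome 3 from 115710433 to 115715072, Il6st on chromosome 13 from 112464070 to 112510086 and Csf2ra on chromosome 19 from 61223957 to 61228429. Promoters of 28 of the 39 genes matched a RefSeq table of the GRCm38.p6 build. The 250 bases before the start are shown for Tnfrsf13c and Ifngr2, the 2 genes with the smallest p among those 28, on the strand of the gene, with a match to the κB motif, in whichever direction it reads, in capitals.

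Tnfrsf13c, chr15:82224381-82224630, minus strand: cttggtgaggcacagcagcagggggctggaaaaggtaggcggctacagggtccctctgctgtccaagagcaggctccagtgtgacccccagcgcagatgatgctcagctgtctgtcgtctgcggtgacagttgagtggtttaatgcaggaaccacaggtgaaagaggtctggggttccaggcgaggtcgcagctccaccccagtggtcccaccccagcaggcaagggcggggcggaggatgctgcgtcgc

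Ifngr2, chr16:91546809-91547058, plus strand: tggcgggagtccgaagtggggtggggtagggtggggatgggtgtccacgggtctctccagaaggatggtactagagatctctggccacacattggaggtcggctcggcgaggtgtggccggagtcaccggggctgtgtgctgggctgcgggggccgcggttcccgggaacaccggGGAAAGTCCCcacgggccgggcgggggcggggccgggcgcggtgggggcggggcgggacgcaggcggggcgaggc

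The Ifngr2 window held 1 match to the κB motif on either strand and the Tnfrsf13c window none. The κB motif was in 3.9% of 32851 promoter windows of that length. It was in 3 of the 32 windows of the 28 receptor genes, 1 each of Ccr6, Ifngr2 and Il2ra. Neither the Ifngr2 nor the Tnfrsf13c window held the E-box CACGTG (6.02% of all windows, 2 of the 32). The STAT motif TTCNNNGAA, in which N is any base (7.02%, 8 of the 32), and the CRE motif TGACGTCA (1.55%, 2 of the 32) were also in neither. These are matches of letters only, and no factor binding was measured.

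Among TNF receptor superfamily genes, Tnfrsf13c differed most. It encodes BAFF-R, the receptor through which mature B cells take up the survival signal of BAFF. Its level was 3.01 CPM in the lowest control line, 18.8 at the median and 40.7 in the highest, and 2.80, 9.98 and 26.99 CPM in the resistant lines. The ranges overlapped, 15 of 17 resistant lines lay below the control median, and both libraries in doubt sat at an edge, since DMSO 12 was the lowest control line and Pac H9 the highest resistant line. The means were 20.9 ± 10.7 CPM (SD, n = 12) and 10.9 ± 6.15 CPM (SD, n = 17), and edgeR's quasi-likelihood test gave a log2 fold change of -0.96 (SE 0.289, adjusted p = 0.0363). Without DMSO 12 and Pac H9 the control lines held 11.4 to 40.7 CPM and the resistant lines 2.80 to 19.3 CPM, 11 of 16 resistant lines lay below every control line, and the same edgeR test gave -1.20 (SE 0.252, adjusted p = 0.00254).

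Of the 9 B lineage markers, 2 had fitted values above 0 (56.6% of all genes), the median was -0.26 (0.07 over all genes), and 3, Cd79b, Ms4a1 and Ebf1, had an unadjusted p under 0.05 (25.1% of all genes). None of the 9 passed 0.01 over all libraries in edgeR's quasi-likelihood test, and 1, Cd79b, did with DESeq2. Cd79b, a B-cell receptor chain, came nearest, with a log2 fold change of -0.64 (SE 0.161, adjusted p = 0.0132) and of -0.70 (SE 0.169, adjusted p = 0.00837) without DMSO 12 and Pac H9 in edgeR's quasi-likelihood test. Ms4a1, which encodes CD20, had the largest fitted difference, at -1.84 (SE 0.758, adjusted p = 0.128 by edgeR) and -2.37 (SE 0.771, adjusted p = 0.0483 by edgeR) without those 2 libraries. The part of B-cell state in the Tnfrsf13c difference was not tested.

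Tnfrsf13b, which encodes TACI, another receptor for BAFF and for APRIL, had a difference of the opposite sign that did not pass. Its level was 17.5, 40.5 and 80.9 CPM in the lowest, median and highest control line and 17.7, 62.3 and 80.1 CPM in the resistant lines. Although 13 of 17 resistant lines lay above the control median, the ranges were nearly the same, and edgeR's quasi-likelihood test gave 0.36 (SE 0.209, adjusted p = 0.283), and 0.12 (SE 0.392, adjusted p = 0.947) on counts thinned to the smallest library. The third receptor of this trio, BCMA (Tnfrsf17), which marks plasma cells, had 23 counts over all libraries. Cd40, the receptor for help from T cells, spanned 2.61 to 36.5 CPM in the control and 0.320 to 36.6 CPM in the resistant lines (log2 fold change -0.21, SE 0.409). Tnfrsf1b, TNF receptor 2, reached at most 8.30 CPM, and Tnfrsf1a, TNF receptor 1, had 1 count in all.

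The remaining members of this family did not pass the filter on low counts, and 1 of them stood out in a pair of lines. Tnfrsf18, which encodes GITR, a costimulatory receptor best known on T cells, had 397 counts over all 30 libraries, with 3 or more in 9 of 12 control and 4 of 17 resistant lines. Pac G9 held 230 of them (36.6 CPM) and Pac H8 held 36 (18.7 CPM), whereas the highest control line held 7.63 CPM. Medians were 1.13 CPM in the control and 0.281 CPM in the resistant lines. Of the 17 resistant lines 13 lay below the control median and 10 below every control line, and 13 held under 3 counts. Tnfrsf4, the OX40 gene next to Tnfrsf18 on chromosome 4, did not go with Tnfrsf18 and reached 3.41 CPM at most in the resistant lines. Cd27 had 29 counts.

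**Figure D2:**
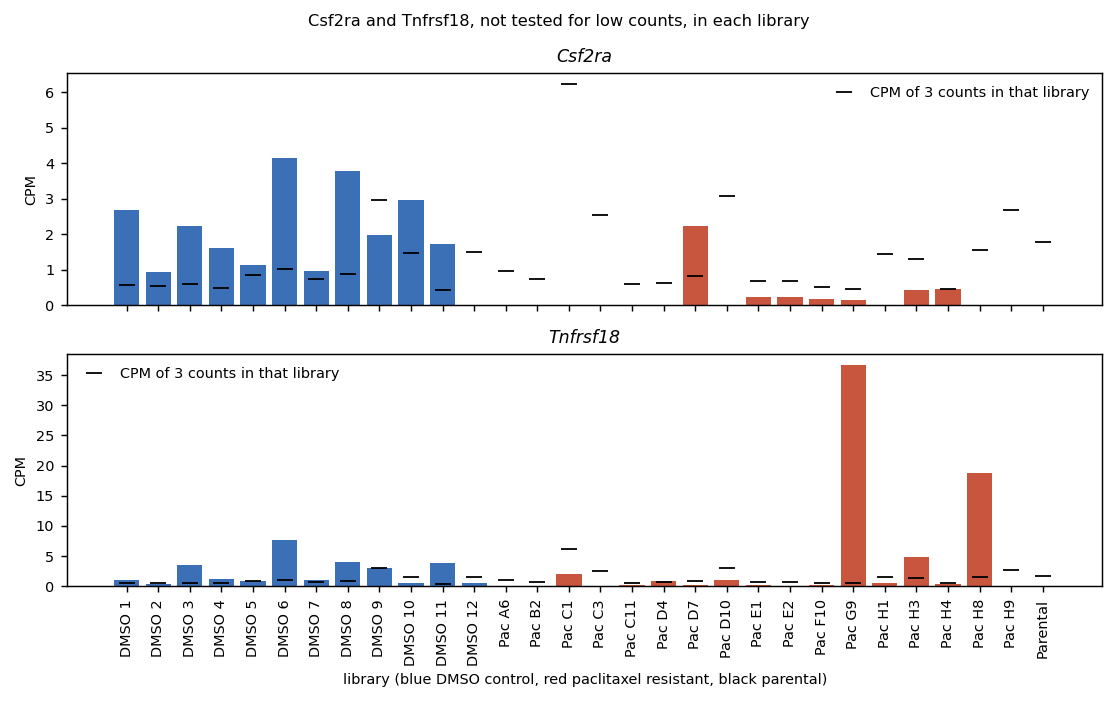
Level (CPM, vertical axis) of Csf2ra and Tnfrsf18 in each library, with a dash at the CPM that 3 counts stand for in that library. Csf2ra lies at 0.930 to 4.16 CPM in DMSO 1 to DMSO 11 and at 0 in DMSO 12, and Tnfrsf18 stands at 36.6 CPM in Pac G9 and 18.7 CPM in Pac H8.

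Both lipid mediator receptors that could be tested had lower fitted values in the resistant lines. Cysltr1 encodes a receptor for cysteinyl leukotrienes. Its level was 58.3, 175 and 259 CPM in the lowest, median and highest control line and 23.3, 65.1 and 207 CPM in the resistant lines. Split at the largest step between neighbouring values, 10 resistant lines held 23.3 to 71.2 CPM and 7 held 119 to 207 CPM. The step was 0.74 on the log2 scale. Any set of values has a largest step, and this one was not compared with those of other genes. Among the control lines the library in doubt, DMSO 12, was the lowest, and Pac H9 was among the 7 higher resistant lines, at 199 CPM. edgeR's quasi-likelihood test gave a log2 fold change of -0.98 (SE 0.299, adjusted p = 0.0389). Without DMSO 12 and Pac H9, the 11 control lines held 142 to 259 CPM, 14 of 16 resistant lines lay below all of them, and the same edgeR test gave -1.17 (SE 0.295, adjusted p = 0.0110).

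S1pr1 encodes S1P receptor 1, which lets lymphocytes leave lymphoid organs. It was at 63.6, 166 and 315 CPM in the lowest, median and highest control line and at 33.3, 120 and 202 CPM in the resistant lines, and 15 of 17 resistant lines lay below the control median. edgeR's quasi-likelihood test gave -0.67 (SE 0.230, adjusted p = 0.0692), and -0.71 (SE 0.239, adjusted p = 0.0557) without DMSO 12 and Pac H9. The adjusted p was 0.0446 with DESeq2, 0.0428 by edgeR's likelihood ratio test and 0.0274 by edgeR with depth as a covariate. In edgeR's quasi-likelihood test it stayed above 0.05 with RLE factors (0.0703) and with no filter on low counts (0.0658). It was also above 0.05 in libraries of at least 1500000 counts (0.0570) and in thinned counts (0.462) by that test. S1pr2, the receptor that holds germinal centre B cells in place, had 99 counts in all.

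Chemokine receptor genes held 1 of the highest read shares and some of the lowest. Ccr7, which guides lymphocytes to T cell zones, was at 94.4, 304 and 574 CPM in the lowest, median and highest control line and at 161, 311 and 531 CPM in the resistant lines, and its log2 fold change was 0.01 (SE 0.216). Cxcr4, which holds B cells in bone marrow and dark zones, was at 8.88, 16.03 and 35.2 CPM in the control and at 4.26, 9.98 and 37.5 CPM in the resistant lines. For Cxcr4 13 of 17 resistant lines lay below the control median and 7 below every control line, but Pac A6 was above every control line, and edgeR's quasi-likelihood test gave -0.41 (SE 0.270, adjusted p = 0.355). Cxcr5, Ccr6 and Ccr9, receptors of follicular B cells and of gut homing, had 270, 60 and 23 counts over all libraries. Of the Cxcr5 counts 48 came from Pac D7, at 13.5 CPM, and the highest control line was DMSO 12, at 10.5 CPM.

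**Figure D3:**
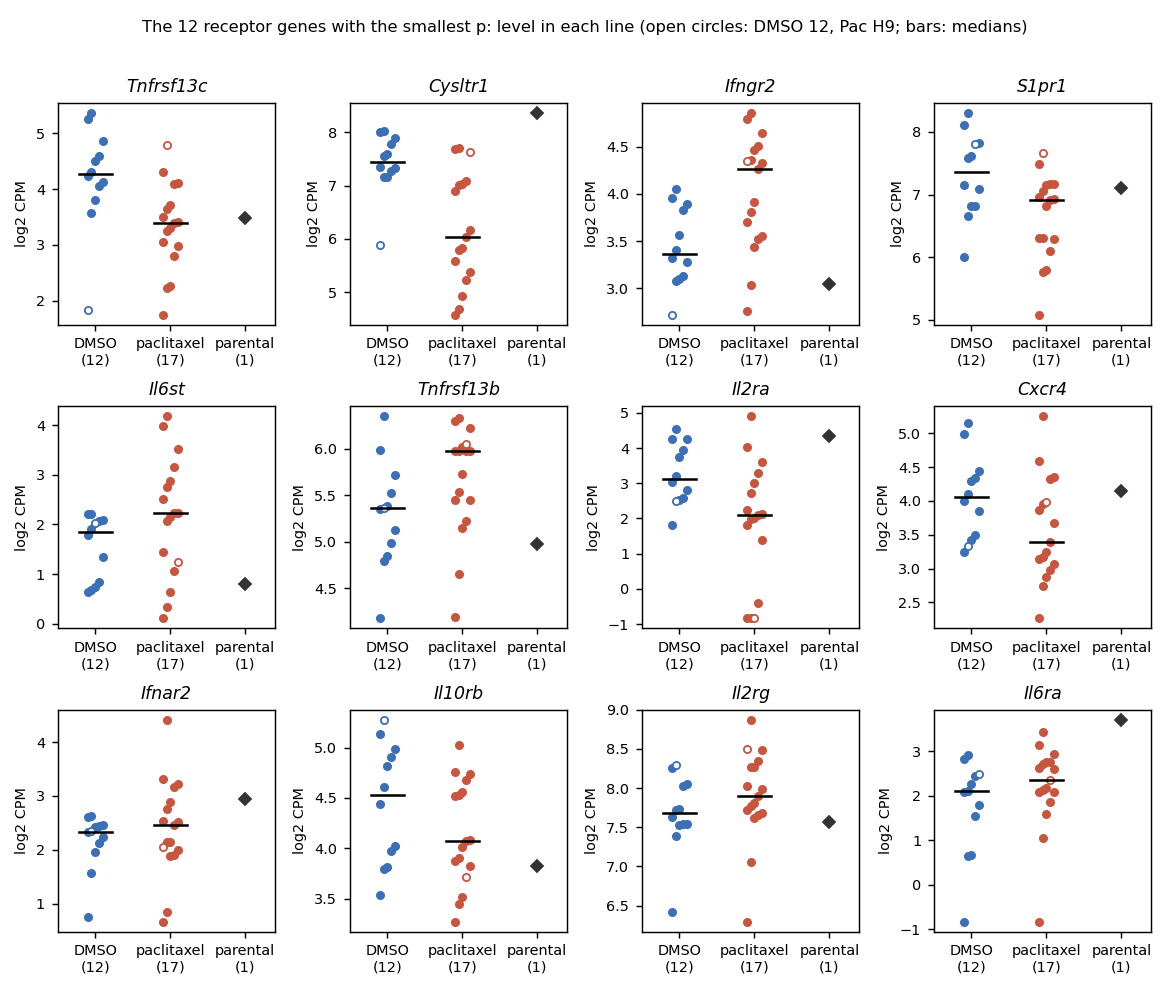
Level (log2 CPM, prior count 2, vertical axis) of the 12 receptor genes with the smallest p in each line, with a bar at the group median, open circles for DMSO 12 and Pac H9 and a diamond for the parental line. DMSO 12 is the lowest control line for Tnfrsf13c, Cysltr1 and Ifngr2, and the parental line is above all others for Cysltr1 (329 CPM) and Il6ra (12.4 CPM).

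All 6 interferon and IL-10 family receptor genes could be tested. Ifngr2, the signalling chain of the interferon-γ receptor, was at 6.03, 9.72 and 16.1 CPM in the lowest, median and highest control line and at 6.23, 18.6 and 28.4 CPM in the resistant lines. Of the 17 resistant lines 9 lay above every control line and 15 above the control median. edgeR's quasi-likelihood test gave 0.66 (SE 0.210, adjusted p = 0.0488), and 0.57 (SE 0.212, adjusted p = 0.0832) without DMSO 12 and Pac H9. DMSO 12 was the lowest control line here, and Pac H9 lay above every control line. The adjusted p with DESeq2 was 0.0198 over all libraries and 0.0400 without those 2. In edgeR's quasi-likelihood test with no filter on low counts it was 0.0895, and 0.140 without those 2. It was 0.0268 by edgeR's likelihood ratio test. In the quasi-likelihood test it was 0.0471 with RLE factors, 0.0271 with depth as a covariate and 0.0364 in libraries of at least 1500000 counts. Its partner Ifngr1, the ligand-binding chain, had the smallest spread of the 6 across resistant lines (SD 0.31 on the log2 scale), with 24.8 to 61.2 CPM in the control and 25.2 to 53.1 CPM in the resistant lines and a log2 fold change of 0.02 (SE 0.135).

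Like Ifngr2, its neighbours on chromosome 16 did not pass the threshold of 0.01, and they had larger p. Ifnar2, a chain of the type I interferon receptor, was at 1.13, 4.49 and 5.65 CPM in the control and at 1.03, 4.91 and 20.8 CPM in the resistant lines (0.43, SE 0.309, adjusted p = 0.396 by edgeR's quasi-likelihood test). The highest resistant value came from Pac C1, the library with the fewest counts, and stood for 10 reads. Il10rb, the chain that the IL-10 receptor shares with other receptors, had a negative difference, at 11.0, 22.5 and 38.2 CPM against 9.11, 16.3 and 32.1 CPM (-0.29, SE 0.211, adjusted p = 0.398 in the same edgeR test). Ifnar1 and Il10ra differed by 0.08 (SE 0.302) and 0.02 (SE 0.315). Exons of Ifnar2 and Il10rb overlap those of a read-through gene, Gm21970, on the same strand. Gm21970 also holds 20.5% of the 50-base words in the last 400 bases of the coding Ifnar2 transcripts, so Ifnar2 counts could be affected. Il10rb shared 0 of its 351 such words.

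Among the 6 type I cytokine receptor genes that passed the filter on low counts, the IL-6 family chain gp130 had the largest fitted difference. It is encoded by Il6st and shared by IL-6, IL-11 and related cytokines. Its level was 0.987, 3.04 and 4.09 CPM in the lowest, median and highest control line and 0.521, 4.11 and 17.5 CPM in the resistant lines, of which 9 lay above every control line and 2 below. edgeR's quasi-likelihood test gave 1.06 (SE 0.422, adjusted p = 0.113), and 1.12 (SE 0.436, adjusted p = 0.101) without DMSO 12 and Pac H9. Il6ra, its IL-6-binding partner, was at 0, 3.70 and 6.95 CPM in the control and at 0, 4.50 and 10.1 CPM in the resistant lines (0.40, SE 0.352, adjusted p = 0.490 in the same edgeR test).

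The common γ chain Il2rg, shared by the receptors for IL-2, IL-4, IL-7 and IL-21, was read at high level in every line. It was at 85.0, 204 and 315 CPM in the lowest, median and highest control line and at 78.0, 238 and 468 CPM in the resistant lines (0.25, SE 0.191, adjusted p = 0.417 by edgeR's quasi-likelihood test). The overlapping gene Gm20489 shares 39.5% of the 50-base words at the 3′ end of Il2rg, so the counts of Il2rg could also be affected. The specific chains that join it differed widely between lines of the same group. Il2ra (CD25) was at 2.96, 8.17 and 22.9 CPM in the control and at 0, 3.74 and 29.3 CPM in the resistant lines, 13 of which lay below the control median, including 3 at 0 counts (-0.76, SE 0.478, adjusted p = 0.324 in the same edgeR test). Without Pac D7, the highest line, it was -1.15 (SE 0.444, adjusted p = 0.110 by edgeR). Il2rb, the chain that the IL-2 receptor needs to signal, had 0 counts in all 30 libraries.

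Il7r, the receptor of early B-cell development, varied more between parallel control lines than any other receptor gene tested, from 1.13 CPM in DMSO 5 to 113 CPM in DMSO 11 (SD 1.80 on the log2 scale). The resistant lines held 5.13 to 94.5 CPM (SD 1.18), and the difference between groups was -0.41 (SE 0.447). Il4ra was at a median of 5.43 CPM in the control and 4.78 CPM in the resistant lines (-0.07, SE 0.342), and Il21r and Il27ra had 172 and 2 counts in all.

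Csf2ra, the GM-CSF-binding chain, did not pass the filter on low counts and is described by its counts. It had 93 counts over 11 of 12 control lines, with DMSO 12 at 0, and 16 counts over 7 of 17 resistant lines. Medians were 1.86 CPM in the control and 0 CPM in the resistant lines, and only Pac D7, at 2.25 CPM, and Pac H4 held 3 or more counts among the resistant lines. In 6 of the 10 resistant lines at 0, 3 counts stood for less than the control median, and in the other 4 the depth could not show such a level. Without a filter on low counts, edgeR's quasi-likelihood test on 27098 genes gave a log2 fold change of -2.76 (SE 0.584, adjusted p = 0.00477), the only receptor gene of 37 past 0.01, beside 1.04% of all genes. Without DMSO 12 and Pac H9 in that same unfiltered edgeR fit it was -2.84 (SE 0.574, adjusted p = 0.00237) and 3 of 37 receptor genes passed, beside 1.47% of all genes. The paired signalling chain Csf2rb had 226 counts and its paralog Csf2rb2, the IL-3 receptor chain, 11, and 11.5% of the 50-base words at the 3′ end of Csf2rb also occur in Csf2rb2.

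**Figure D4:**
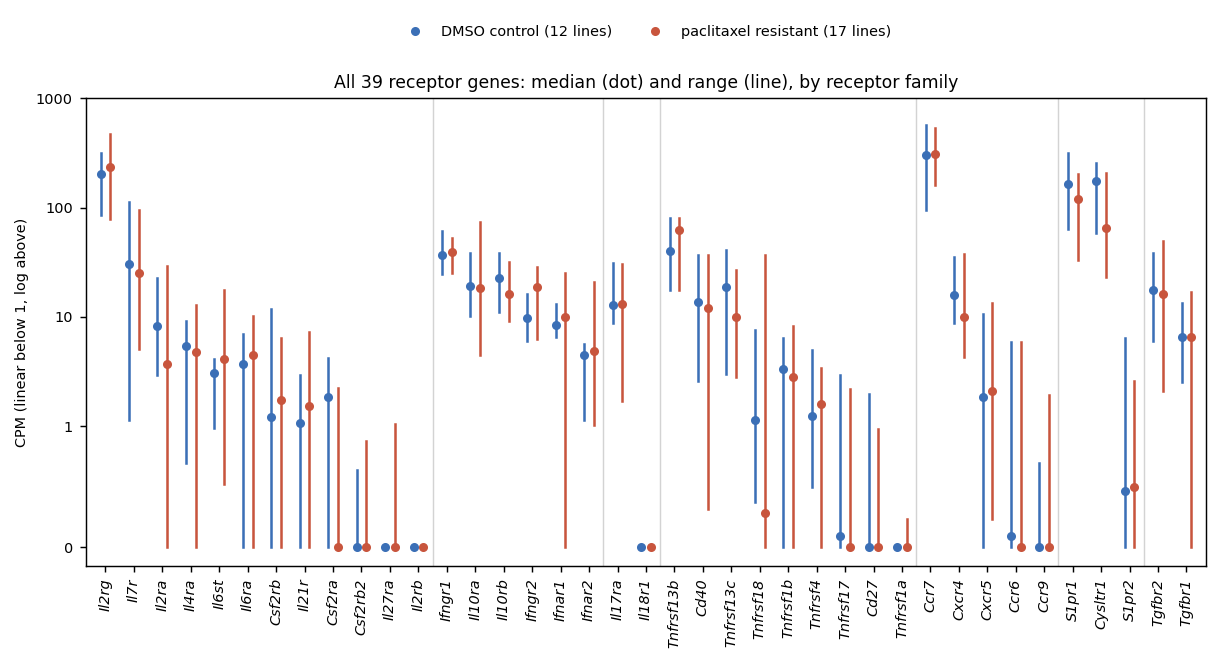
Median (dot) and range (line) of the level (CPM, vertical axis, linear below 1 and logarithmic above) of all 39 receptor genes in the 12 control and 17 resistant lines, with grey lines between receptor families. Il2rg, Ccr7 and S1pr1 have medians above 100 CPM in both groups, and Il2rb and Il18r1 have no count in any library.

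Of the receptor genes outside these groups, Il17ra had a median of 12.8 CPM in the control and 13.2 CPM in the resistant lines (0.10, SE 0.283) and Il18r1 had 0 counts. The kinase pair Tgfbr1 and Tgfbr2 was at medians of 6.48 and 17.6 CPM in the control and 6.54 and 16.2 CPM in the resistant lines, with differences of 0.08 (SE 0.300) and 0.17 (SE 0.325). In all, 16 of the 39 receptor genes were not tested, of which 2 had no count, 6 had 1 to 29 counts and 8 had 60 to 397. The libraries read 3′ ends and the levels were not divided by gene length, so levels of different genes are read shares and not compared as amounts of RNA. In whole cultures, fewer cells that express a gene and less RNA per cell cannot be told apart.

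The spread between lines is given beside that of all genes, with no test and no match on level, and counting error is part of it. The median SD over the 23 tested genes was 0.63 on the log2 CPM scale in the control lines and 1.01 in the resistant lines, beside 0.46 and 0.68 over all genes tested. The resistant lines had the larger SD in 17 of the 23 receptor genes (73.9%), beside 87.2% of all genes. A single line, Pac D7, was the highest resistant line in 9 of the 23 (39.1%), beside 7.79% of all genes tested. These 9 included Il2ra, Il2rg, Il4ra, Il10ra, Ifnar1, Ifngr2, Cd40 and Ccr7 at 29.3, 468, 12.9, 73.7, 25.3, 28.4, 36.6 and 531 CPM, the other being Il17ra. Its margin over the next resistant line ran from 2.11 times for Il10ra to 1.01 times for Ccr7.

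**Figure D5:**
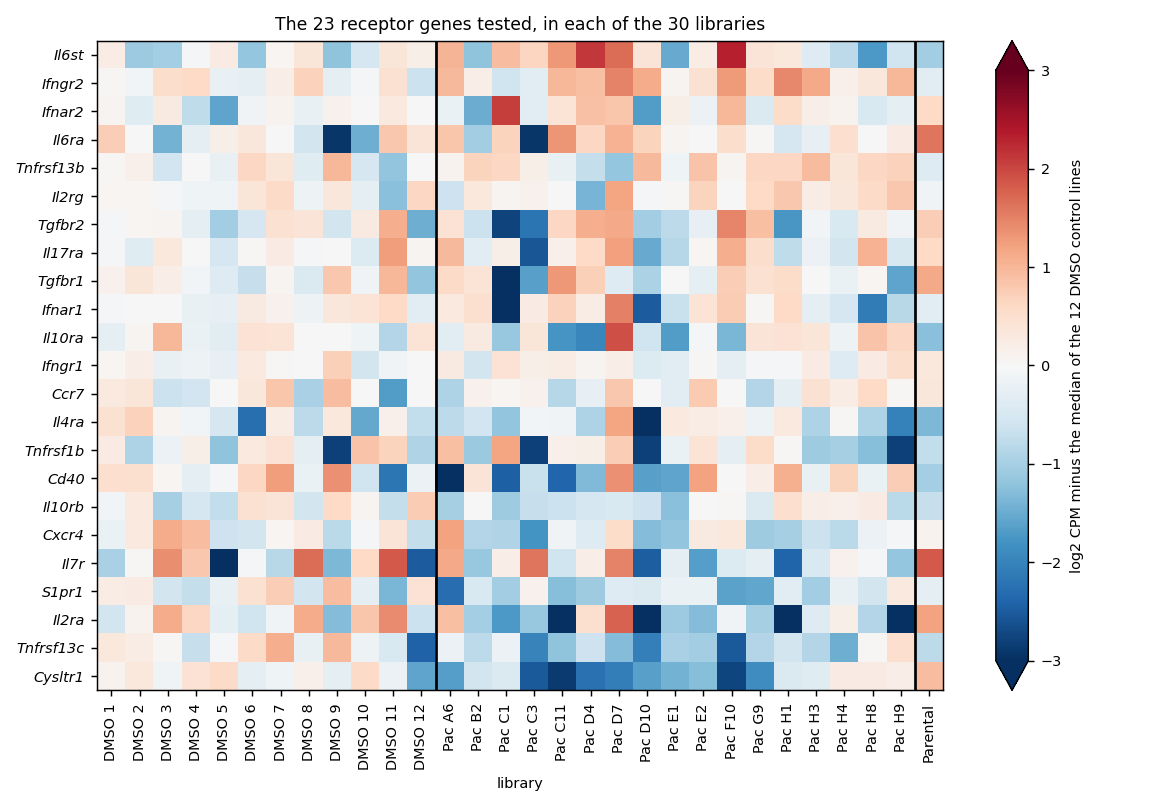
The 23 tested receptor genes (rows) in each library (columns), coloured by log2 CPM minus the median of the 12 control lines, with black lines between control, resistant and parental libraries. Tnfrsf13c and Cysltr1 are below the control median in 15 and 14 of the 17 resistant lines, and the column of Pac D7 is the highest resistant value in 9 of the 23 rows.

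Whether the chains of 1 receptor vary together across lines was tested for 8 pairs with both genes tested, within the resistant and within the control lines, as 16 correlations of log2 CPM. Tgfbr1 and Tgfbr2 in the 17 resistant lines gave a Pearson r of 0.693 (permutation p = 0.00197, adjusted p = 0.0315) and a Spearman rho of 0.593 (permutation p = 0.0138, adjusted p = 0.0836). The relation rests on few lines, since r was 0.32 (permutation p = 0.245) without the 2 lines farthest from the median of Tgfbr1, and 0.733 (adjusted permutation p = 0.0146) without Pac H9 and DMSO 12. Both genes also followed depth, with r to the log10 library total of 0.809 for Tgfbr1 and 0.660 for Tgfbr2, and in the shallowest library, Pac C1, they had 0 and 1 counts. None of the other 15 correlations had an adjusted p under 0.05. Ifngr1 with Ifngr2 gave r = 0.03 in the resistant lines and -0.31 in the control lines (adjusted permutation p = 0.906 and 0.525), and Il7r with Il2rg gave r = -0.50 in the control lines (adjusted permutation p = 0.322), a rho of -0.69 (adjusted permutation p = 0.0836) and, without the 2 farthest lines, r = -0.74 (adjusted permutation p = 0.0856).

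The genes around the receptors were read from lists of ligands, JAK and STAT genes, feedback inhibitors, TNF receptor adaptors with NF-κB, TGF-β signal and G protein signal genes. Of 38 ligand genes 4 had enough counts, none of which passed 0.01 in edgeR's quasi-likelihood test, with 3 at an unadjusted p under 0.05 (25.1% of all genes). The chemokine Ccl5 came nearest, with 0.771 to 95.9 CPM in the control and 8.68 to 671 CPM in the resistant lines (2.58, SE 0.792, adjusted p = 0.0395). The highest control line was DMSO 12, and without it and Pac H9 the edgeR test gave 3.23 (SE 0.815, adjusted p = 0.0111). Over all libraries Ccl5 passed with DESeq2 (adjusted p = 0.00985). None of 10 JAK and STAT genes, 11 feedback inhibitors, 21 TNF receptor adaptor and NF-κB genes and 8 TGF-β signal genes tested passed 0.01, with 2, 4, 5 and 2 of them at an unadjusted p under 0.05 in the same edgeR test, beside 25.1% of all genes. With DESeq2, 0 of the 10 JAK and STAT genes, 1 of the 11 feedback inhibitors (Pias3, 0.84, adjusted p = 0.00822), 0 of the 21 and 0 of the 8 passed. The 10 JAK and STAT genes had a median log2 fold change of 0.35, beside 0.07 over all genes, and 10 of 10 fitted values lay above 0, beside 56.6% of all genes, or 9 of 10 without DMSO 12 and Pac H9 and with DESeq2. Whether the group moved was not tested. Nearest the threshold in these lists were Stat6, a STAT factor of IL-4 signals, Pias3, an inhibitor of STAT factors, Nfkbia, the NF-κB inhibitor, and Skil, a repressor of SMAD signals, at 0.38 (SE 0.123), 0.82 (SE 0.2497), 1.20 (SE 0.371) and 0.71 (SE 0.2504). Their adjusted p by edgeR was 0.0534, 0.0393, 0.0409 and 0.0764, and 0.112, 0.0450, 0.0332 and 0.0862 without DMSO 12 and Pac H9. With DESeq2 it was 0.0182, 0.00822, 0.0105 and 0.0480.

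Of 15 G protein signal genes tested 2 passed, beside 2.2% of all genes. Klf2, a transcription factor known to drive S1pr1 in lymphocytes, was at 23.8, 64.4 and 103 CPM in the lowest, median and highest control line and at 7.91, 17.1 and 69.8 CPM in the resistant lines, and it fell by 1.31 on the log2 scale (SE 0.272, adjusted p = 0.00283 by edgeR's quasi-likelihood test), also without DMSO 12 and Pac H9 (-1.28, SE 0.290, adjusted p = 0.00498). Rgs1, which damps signals from chemokine receptors, rose by 2.86 (SE 0.689, adjusted p = 0.00984 in the same edgeR test) from a median of 0.541 to 3.08 CPM, and missed the threshold without those 2 libraries (2.83, SE 0.728, adjusted p = 0.0123). Klf2 and S1pr1, a pair chosen after their values were seen, gave r = 0.266 over the resistant lines and 0.413 over the control lines (permutation p = 0.300 and 0.183), and rho = 0.426 and 0.105. Without the 2 lines farthest from the median, r was 0.154 and -0.188.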

How the data were processed

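Total RNA of 30 cell lines was made into 3′-end digital gene expression libraries in 2 subpools of 15, whose membership is not given in the sources used here. The authors aligned reads to GRCm38 (mm10) with STAR 2.5.1b and deposited raw gene counts, 1 column per line. Whether unique molecular identifiers were collapsed is not given in the sources used here, so intervals and floors cover counting error only. Symbols (55141 of 55401 identifiers matched) and positions came from gencode M21, whereas the study names M25. Lines were grouped by the treatment label. The parental line entered no test.

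Counts of 12 control and 17 resistant lines were compared with edgeR 4.0.16 (R 4.3.3): TMM factors, the filter of filterByExpr, the quasi-likelihood F test and Benjamini-Hochberg adjustment over all genes tested, at 0.01. SE is the log2 fold change over the square root of F. CPM are TMM-normalized over 30 libraries and log2 CPM used a prior count of 2. Correlations had 100000 permutations, two-sided, adjusted over 16. Alternatives were DESeq2 1.42.0, the likelihood ratio test, RLE factors, no filter, a depth covariate, thinned counts, a threshold of 0.05 and fits without libraries. The scripts were tested on simulated data. All 39 receptor genes are accounted for, and full values are given for genes past 0.01 and then in order of p up to 12. Of the other lists, called genes were named, and, after their values were seen, the gene nearest the threshold where none was called. The members, lists, pairs and motifs were chosen with earlier results of these data known.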

Additional observations from a re-analysis of the deposited data

Results flagged for a closer look

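The single parental library, which entered no comparison, lay above all 12 control libraries for 5 of the 23 tested receptor genes. Cysltr1 was at 329 CPM there, against at most 259 CPM in a control line. Il6ra was at 12.4 CPM against at most 6.95, Ifnar2 at 7.11 against at most 5.65, Tgfbr1 at 14.8 against at most 13.5, and Il7r at 112.6 against at most 112.5. It lay below all control libraries for 2 genes, Il10ra (7.70 CPM against at least 10.1) and Ifnar1 (6.52 against at least 6.53), and within the control range for the other 16. There is no replicate of this library and the differences were not tested. The share of all genes tested that lay outside the control range in this library was not counted. These numbers therefore do not set the receptor genes apart from other genes. If the labels were moved by 1 library from DMSO 12 on, this label would be touched too.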

How the results depend on the processing

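The number of receptor genes past the threshold, 0 over all 29 libraries, was 0 under the likelihood ratio test, DESeq2, RLE factors, a depth covariate, thinned counts (9 genes tested) and libraries of at least 1500000 counts. It was 1 without DMSO 12 and Pac H9 (Tnfrsf13c), 1 with no filter on low counts (Csf2ra), 2 with DESeq2 without DMSO 12 and Pac H9 (Tnfrsf13c and Cysltr1), 3 with no filter and without those 2 libraries, and 3 at an adjusted p under 0.05 (0 in thinned counts to 4 with DESeq2, not counted with 1 library left out). Over all genes, 208 became 321 without DMSO 12 and Pac H9, 448 by the likelihood ratio test, 491 with DESeq2, 627 with DESeq2 without the 2 libraries, 396 with no filter and without them, 714 at 0.05 and 17 in thinned counts. Leaving out each library in turn gave 0 to 0 receptor genes and 139 to 299 genes in all, the highest without DMSO 11, with 283 without DMSO 12. The DESeq2, unfiltered and deep-library fits without libraries were chosen after seeing the data.

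The 12 named receptor genes kept their direction in all 460 values under these alternatives, and 5 values moved past the threshold, all of Tnfrsf13c or Cysltr1 without DMSO 12 and Pac H9. Values that moved by over 1.5 times were those of Il2ra (-1.15) and Il2rg (0.17) without Pac D7, Ifnar2 (0.28) without Pac C1, Cxcr4 without DMSO 3 (-0.27) and with the depth covariate (-0.24), Tnfrsf13b in thinned counts (0.12), and Il10rb in libraries of at least 1500000 counts (-0.14) and without DMSO 12 and Pac H9 (-0.19 with or without the filter, and -0.16 with DESeq2), none of which was past the threshold either way. Of 48 pair correlations under alternatives 2 changed sign: Ifngr1 with Ifngr2 in the resistant lines was -0.0289 without DMSO 12 and Pac H9, and Ifnar1 with Ifnar2 was 0.367 without the 2 lines farthest from the median. Without the 2 farthest lines 0 of the 16 correlations had an adjusted p under 0.05, beside 1 without DMSO 12 and Pac H9. The cause was not tested. No paired analysis was possible because control and resistant lines share no replicate numbers. The doubt on labels, the unknown subpools and the low counts of 16 receptor genes limit all of these values.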
